A study of Homo sapiens with 12 samples.

Results

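The 10 genes described here encode tetraspanins: CD82, CD9, CD37, CD53, CD63, CD81, CD151, TSPAN3, TSPAN14 and TSPAN31. They were taken by symbol from a table of 55765 genes, because CD82 differed between the lines compared and was higher after induction in one of them. All 10 were in the table and all 10 passed the filter on low counts that left 11474 genes to test. The set was thus chosen by the measured CD82 values of the S222A induction and of both comparisons between lines. In these 3 comparisons, and in the difference of induction effects that contains one of them, the 10 genes are therefore described with their values and no p. Calls of members there are listed beside the share over all genes and are not read as results.

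RNA was sequenced from OCI-AML2, an established human line of acute myeloid leukaemia. All cells were single-cell clones that carried an inducible construct for the transcription factor MEF2C. In one line the construct was wild type (WT), and in the other it had serine replaced by alanine (S222A). Each construct had 3 uninduced libraries, from cells kept in vehicle, and 3 induced libraries, from cells given 600 ng doxycycline in 3 ml for 48 h. How many clones each line came from is not stated, so line and clone cannot be told apart. No label says that replicates were separate cultures, so the p-values rest on a spread between libraries that may be technical. Doxycycline-treated cells without a construct were not analysed here, so an effect of doxycycline itself cannot be told apart from induction.

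Tetraspanins are small proteins that cross the membrane 4 times and fold 2 loops outside the cell, the larger of which carries a conserved cysteine motif and binds partner proteins. They gather integrins, immunoglobulin superfamily proteins and membrane proteases into shared membrane domains, and so affect adhesion, migration, signalling and the sorting of proteins into vesicles. On blood cells some are broad leukocyte antigens (CD37, CD53), some are found on nearly all cells (CD81, CD63), and others, such as CD9 and CD151, are known from platelets and their precursors.

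The 12 libraries held 875710 to 13134791 counts each, and 3 counts, taken as the floor of detection, corresponded to 0.239 to 3.36 CPM (counts scaled to library size with TMM factors), for counting error only. The deepest library of each group stood apart on the first component of a principal component analysis, at 33.5 to 44.4 against -51.3 to -2.2 for the other 8. S222A uninduced replicate 3 stood apart on the third, at -62.5. MEF2C, the induced gene, stood at 645.3 to 816.7 CPM uninduced and 674.4 to 844.1 induced in the WT line. In the S222A line it stood at 605.3 to 801.6 CPM uninduced and 786.3 to 956.1 induced. Its induction was called in neither line by edgeR (adjusted p = 1 in WT and 0.285 in S222A). Of 9 myeloid markers, 8 were detected in every group, PTPRC, CD33, FLT3 and SPI1 among them, while CEBPA was at 0 counts in every library. ANPEP, also among the 8, had only 2 to 7 counts a group. The myeloid granule enzyme MPO was lower on S222A induction (7.24 ± 2.13 to 2.12 ± 1.34 CPM, SD, n = 3; fold 0.305, edgeR adjusted p = 0.0377) and in S222A than in WT induced libraries (fold 0.248, adjusted p = 0.0124). Of the 7 myeloid markers tested, MPO alone was called on S222A induction, where 4.45% of all genes were called. The groups there did not overlap for 3 with higher and 2 with lower induced values, against 14.4% and 13% of all genes. The folds were 4.66 for KIT, 1.41 for FLT3, 1.21 for PTPRC and 0.604 for CSF1R. The 9 markers summed to 732.4 to 812.6 CPM in S222A uninduced and 849.8 to 957 CPM in S222A induced libraries. The part of these markers in the levels below was not tested. The erythroid markers HBA1, HBB, ALAS2 and KLF1 and the platelet gene PPBP had no count in any library. T cell and fibroblast markers summed to at most 2.08 and 5.2 CPM, and epithelial markers to 12.4 to 37.2 CPM. Nearly all of the epithelial sum was CDH1, while EPCAM, KRT19 and KRT18 had no count in any library. In bulk RNA, fewer cells of a type and less RNA per cell cannot be told apart.

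CD82 differed in level more than any of the other 9 tetraspanins in both comparisons between lines. It encodes a tetraspanin that binds integrins and has been described as a suppressor of metastasis. In WT uninduced libraries CD82 stood at 11.1, 9.46 and 11 CPM, and in WT induced libraries at 13.7, 13.5 and 15.3 CPM. In S222A uninduced libraries CD82 stood at 44.4, 45.6 and 49.3 CPM, and in S222A induced libraries at 121.9, 112.2 and 122.4 CPM. The 4 groups formed 4 separate ranges in the order just given, and no library of one group overlapped another group.

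As folds from the fit over all 12 libraries, CD82 was 2.57 times as high after S222A induction (95% interval 2.08 to 3.19; log2 1.36 ± 0.14 SE). It was 4.42 times as high in the S222A as in the WT line before induction (3.47 to 5.63; log2 2.14 ± 0.16 SE) and 8.32 times as high after it (6.57 to 10.5; log2 3.06 ± 0.16 SE). The log2 effect of induction was 0.91 ± 0.22 SE larger in the S222A than in the WT line. These comparisons share groups with each other, and these CD82 values are those by which the gene was chosen. Taking only the deepest library of each group, which leaves no spread within groups, the log2 difference of CD82 on S222A induction was 1.45. Within the other 8 libraries it was 1.30. Between the uninduced lines these values were 2.18 and 2.05, and between the induced lines 3.11 and 2.99. Both parts hold the values that chose CD82, so they are no separate check.

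**Figure D1:**
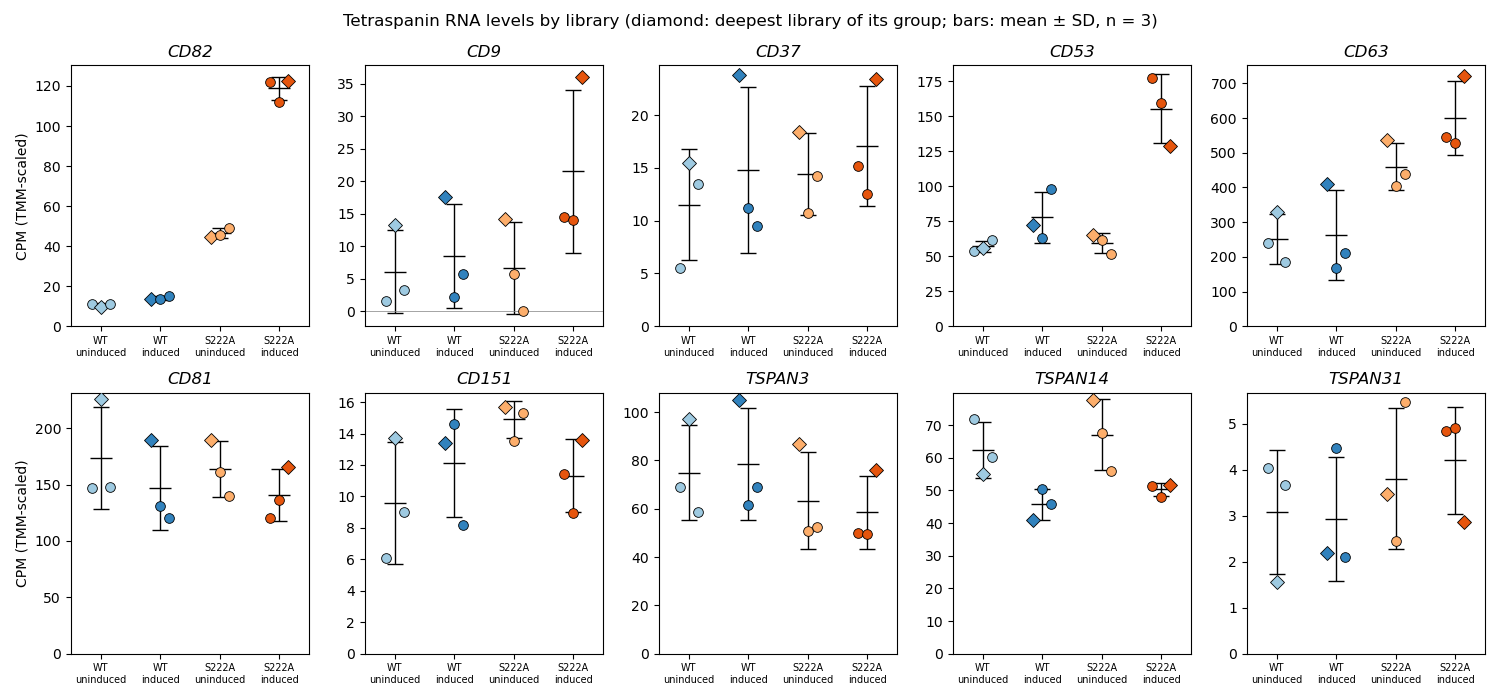
Levels of the 10 tetraspanin genes in CPM with TMM factors (vertical axes, 1 scale per gene) in the 12 libraries, by group on the horizontal axis. Points are libraries, diamonds the deepest library of each group, and bars the mean and SD of 3 libraries. CD82 formed 4 separate ranges, from 9.46 to 11.1 CPM in WT uninduced to 112.2 to 122.4 CPM in S222A induced libraries, while CD9 was highest in the diamond of every group.

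WT induction was not itself among the comparisons that chose CD82, but it shares its libraries with both comparisons between lines, and its CD82 value follows from the 3 that were. CD82 is therefore only described there, at 1.37 times as high (95% interval 1.06 to 1.76; log2 0.45 ± 0.17 SE) with all induced libraries above the uninduced ones. Of the other 9 tetraspanins, none was called at an adjusted p under 0.05 with edgeR's quasi-likelihood test, against 1 of 11474 genes in all (0.00872%), and DESeq2 called none of them either. At an unadjusted p under 0.05 stood 2 of these 9 (CD53 and TSPAN14) and 195 of the 11474 genes. The groups did not overlap for 2 of these 9, CD53 with higher and TSPAN14 with lower induced values, against 5.79% of all genes tested (2.81% higher and 2.98% lower). The median log2 fold change of the 10 was 0.158, against 0.006 for all genes tested. This median includes CD82 and is only a description.

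CD53, an antigen carried by most leukocytes, had a fold on S222A induction close to that of CD82, as CD9 did with a far wider interval. CD53 stood at 65.1, 61.6 and 51.5 CPM in S222A uninduced and at 177.7, 159.9 and 129 CPM in S222A induced libraries. In the WT line CD53 stood at 54, 55.8 and 61.7 CPM in vehicle and at 72.3, 62.8 and 98.4 CPM with doxycycline. The uninduced lines overlapped, and the S222A induced libraries lay above all 9 others. The fold of CD53 on S222A induction was 2.58 (95% interval 1.94 to 3.44; log2 1.37 ± 0.19 SE). Unlike CD82, CD53 had a fold of 1.05 (0.788 to 1.4) between the uninduced lines, and of 1.97 (1.49 to 2.61) between the induced lines. On WT induction the fold of CD53 was 1.38 (1.04 to 1.83; log2 0.46 ± 0.19 SE, edgeR adjusted p = 1). Between the deepest libraries, which leave no spread within groups, the log2 difference of CD53 on S222A induction was 0.98, and within the other 8 it was 1.57.

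The sequences before the starts of CD82 and CD53 are shown because these were the members called on S222A induction, the comparison by which CD82 was chosen. That choice sets only which sequences are shown. They come from a RefSeq table on GRCh38.p14, which held 6 of the 10 genes; CD37, CD81, CD151 and TSPAN3 are not shown there. Each window is the 250 bases before an annotated start, on the plus strand, for CD82 chr11:44565413-44565662 and for CD53, which has a pair of annotated starts, chr1:110870960-110871209 and chr1:110872898-110873147. Capitals mark matches, on either strand, to the letters of a GC box (GGGCGG) or the core of the site of the myeloid factor PU.1 (GAGGAA).
CD82: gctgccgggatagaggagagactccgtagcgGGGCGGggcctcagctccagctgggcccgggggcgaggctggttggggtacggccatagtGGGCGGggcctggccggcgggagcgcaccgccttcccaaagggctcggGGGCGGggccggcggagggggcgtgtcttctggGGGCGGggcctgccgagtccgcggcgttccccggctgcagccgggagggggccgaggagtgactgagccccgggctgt
CD53, first start: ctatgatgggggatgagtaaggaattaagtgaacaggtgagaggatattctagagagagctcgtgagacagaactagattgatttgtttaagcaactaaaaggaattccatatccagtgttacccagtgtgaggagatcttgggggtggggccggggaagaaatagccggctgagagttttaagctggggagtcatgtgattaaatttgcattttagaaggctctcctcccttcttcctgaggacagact
CD53, second start: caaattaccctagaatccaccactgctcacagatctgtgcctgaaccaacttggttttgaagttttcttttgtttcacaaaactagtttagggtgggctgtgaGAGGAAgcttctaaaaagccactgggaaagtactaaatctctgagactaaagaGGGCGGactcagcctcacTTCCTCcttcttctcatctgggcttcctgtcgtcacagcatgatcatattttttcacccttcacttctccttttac

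The CD82 window was 77.2% G and C and held 4 GC boxes and no PU.1 core. The CD53 windows were 45.2% and 44% G and C, the second with 1 GC box and 2 PU.1 cores. Of 35116 such windows in the table, 42.6% held a GC box and 23.6% a PU.1 core. The core of a MEF2 site was in 2.36% of all windows and in none of these 3, and the AP-1 site TGANTCA in 6.57% and in none of them. The TATA box letters TATAAA were in 10.7% of windows and in none of these either. A match or its absence describes these letters in these windows only.

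**Figure D2:**
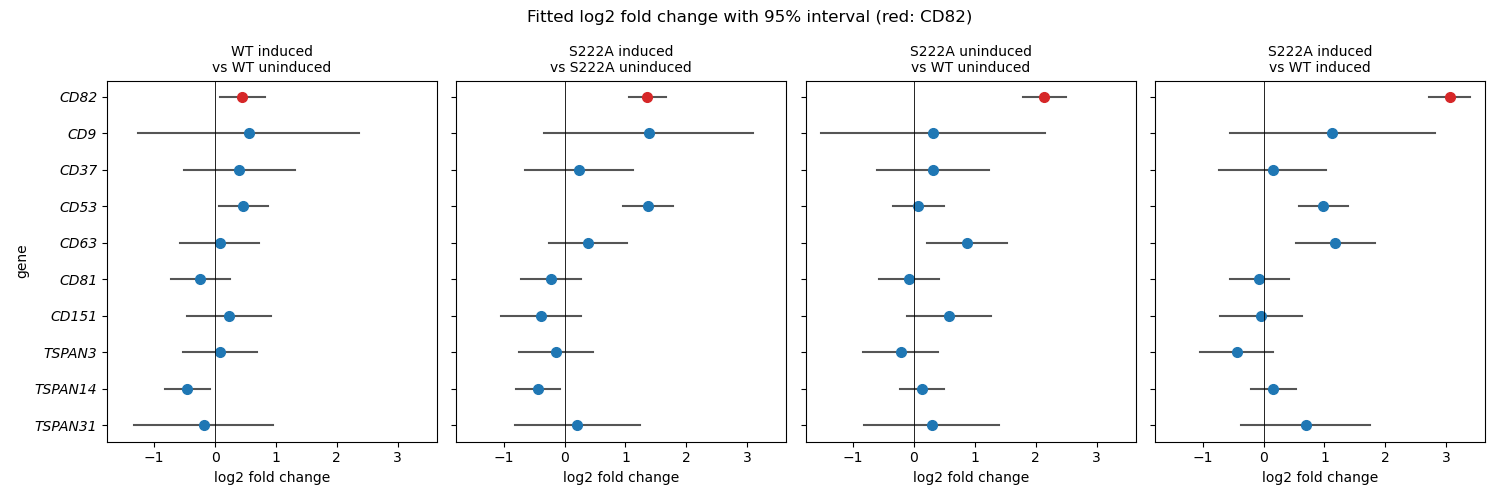
Fitted log2 fold changes of the 10 tetraspanins (points, CD82 in red) with 95% intervals (lines), 1 panel per comparison, from the model over all 12 libraries. CD82 and CD53 had like values on S222A induction (1.36 and 1.37), and CD82 stood at 2.14 and 3.06 between the lines; the intervals of CD9 were the widest.

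CD63, a tetraspanin of late endosomes and lysosomes that is also carried by secreted vesicles, was the member with the most RNA per length in every group. CD63 stood at 241.2, 328.4 and 185.1 CPM in WT uninduced and at 410.1, 168.2 and 212.4 CPM in WT induced libraries. In the S222A line CD63 stood at 537.3, 405.5 and 438 CPM in vehicle and at 546.9, 528.4 and 722.8 CPM with doxycycline. Each S222A group lay above the WT group of the same treatment without overlap. The fold of CD63 between the uninduced lines was 1.83 (95% interval 1.16 to 2.87) and between the induced lines 2.26 (1.44 to 3.55). On induction it was 1.05 (0.673 to 1.65; edgeR adjusted p = 1) in the WT and 1.3 (0.833 to 2.03) in the S222A line.

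Across the 3 comparisons by which CD82 was chosen, the tetraspanins called at an adjusted p under 0.05 were CD82 and CD53 on S222A induction, where 4.45% of all genes were called (2.8% higher and 1.66% lower). CD82 alone was called between the uninduced lines, where 0.392% were called (0.34% higher and 0.0523% lower). CD82, CD53 and CD63 were called between the induced lines, where 6.34% were (3.73% higher and 2.61% lower). No member was called for the difference of induction effects (0.0784% of all genes, 0.0523% higher and 0.0261% lower). These counts include the values behind the choice and nothing is read from them. The call of CD63 between the induced lines was lost without any 1 of WT induced replicates 2 and 3 and S222A induced replicates 1, 2 and 3, when 2 members remained called, and with a replicate block. Between the uninduced lines, a term for the deepest libraries, leaving these libraries out, or no filter on low counts each called CD63 as well. The groups did not overlap for 3 members on S222A induction (27.5% of all genes, 14.4% higher and 13% lower). They did not overlap for 2 between the uninduced lines (12.3%, 6.24% higher and 6.1% lower) and for 3 between the induced lines (28%, 15.2% higher and 12.9% lower).

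CD81, CD9 and CD151 are tetraspanins with well-known surface partners. CD81 organises receptors in the membrane of many cell types, CD9 binds immunoglobulin superfamily proteins such as those encoded by PTGFRN and IGSF8, and CD151 binds the laminin-binding integrins. CD81 stood at 146.9, 225.6 and 148.3 CPM in WT uninduced, 190, 131.2 and 120.3 in WT induced, 189.4, 161.3 and 140.2 in S222A uninduced and 120.2, 136 and 165.4 CPM in S222A induced libraries. All 4 groups of CD81 overlapped, with folds of 0.85 (95% interval 0.606 to 1.19; edgeR adjusted p = 1) on WT and 0.856 (0.611 to 1.2) on S222A induction. CD151 stood between 6.06 and 15.7 CPM over the 12 libraries. Its groups overlapped in all 4 comparisons between groups, with folds of 1.18 (0.726 to 1.9; edgeR adjusted p = 1) on WT and 0.767 (0.484 to 1.21) on S222A induction.

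CD9 was the member with the largest spread within groups. CD9 stood at 1.51, 13.3 and 3.27 CPM in WT uninduced, 17.5, 2.24 and 5.79 in WT induced, 14.2, 5.75 and 0 in S222A uninduced, and 14.5, 14 and 36 CPM in S222A induced libraries. Behind these levels stood 3 counts in WT uninduced replicate 1, 2 in WT induced replicate 2 and 0 in S222A uninduced replicate 3, where the floor was 3.29 CPM. The fold of CD9 on S222A induction was 2.6, close to those of CD82 and CD53, but with an interval of 0.792 to 8.51. On the log2 scale it was 1.38, falling to 0.77 when S222A induced replicate 3 was left out and reaching 2.53 when S222A uninduced replicate 1 was. On WT induction it was 1.46 (0.415 to 5.14; edgeR adjusted p = 1). The megakaryocyte and platelet markers, of which ITGA2B and GP9 had the most counts and PPBP none, summed to 3.67 to 8.07 CPM in WT uninduced, 3.36 to 6.58 in WT induced, 2.19 to 6.98 in S222A uninduced and 5.26 to 7.97 CPM in S222A induced libraries, with 4, 3, 3 and 4 of the 5 detected. Their part in the CD9 levels was not tested.

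In every group CD9 was highest in the deepest library, by 1.31 to 3.12 on the log2 scale over the mean of the other 2. CD37, CD63, CD81 and TSPAN3 were also highest in the deepest library of all 4 groups, by 0.56 to 1.17, 0.35 to 1.12, 0.33 to 0.61 and 0.60 to 0.74. This held for 17.4% of all genes tested, and the reverse, lowest in all 4, for 15.4%. CD82 was within -0.22 to 0.07 of the other libraries and CD53 within -0.38 to 0.21. The share of mitochondrial RNA was 5.03 to 7% in the deepest libraries and 6.86 to 9.27% in the other 8. Its part in these levels was not tested.

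**Figure D3:**
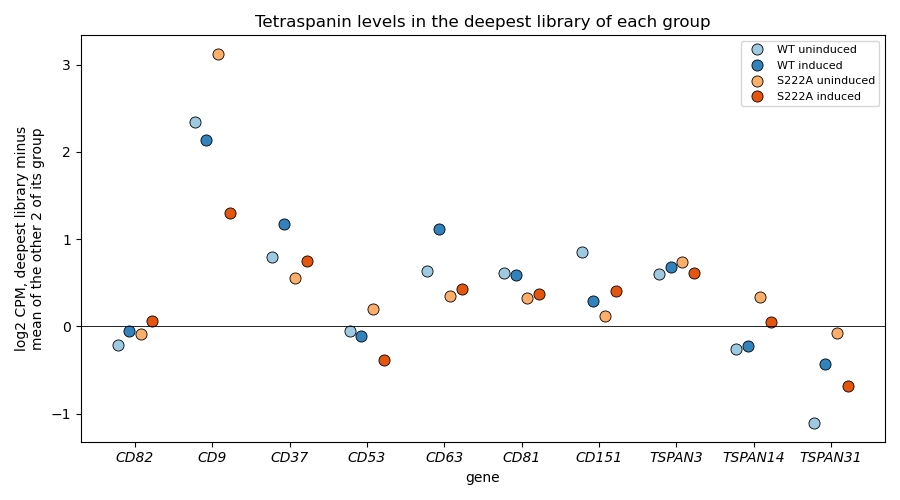
Difference in log2 CPM between the deepest library of each group and the mean of the other 2 (vertical axis) for the 10 tetraspanins (horizontal axis), 1 point per group. CD9 lay at 1.31 to 3.12, and CD37, CD63, CD81, CD151 and TSPAN3 lay above 0 in all groups, while CD82 lay between -0.22 and 0.07.

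CD37, a leukocyte tetraspanin best known from mature B cells, had levels of 5.55 to 15.5 CPM in WT uninduced, 9.47 to 23.8 in WT induced, 10.7 to 18.4 in S222A uninduced and 12.5 to 23.4 CPM in S222A induced libraries. All groups of CD37 overlapped, and its fold was 1.32 (95% interval 0.699 to 2.48; edgeR adjusted p = 1) on WT and 1.17 (0.634 to 2.17) on S222A induction. Among B cell markers CD79B stood at 0 to 6.54 CPM and PAX5 at 0 to 3.12 CPM over the 12 libraries, and MS4A1 had at most 2 counts in any. Their part in the CD37 levels was not tested.

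TSPAN14, one of the tetraspanins that carry the protease ADAM10 to the cell surface, had lower values in induced than in uninduced libraries of both lines, and its WT difference did not pass the test. TSPAN14 stood at 71.7, 55 and 60.1 CPM in WT uninduced and at 40.8, 50.4 and 45.8 CPM in WT induced libraries. In the S222A line it stood at 77.7, 67.7 and 55.8 CPM in vehicle and at 51.3, 47.9 and 51.7 CPM with doxycycline. The uninduced and induced groups did not overlap in either line. The fold of TSPAN14 was 0.728 on WT induction (95% interval 0.563 to 0.941; log2 -0.46 ± 0.17 SE, edgeR adjusted p = 1) and 0.74 on S222A induction (0.576 to 0.95; log2 -0.44 ± 0.17 SE). These inductions share no library. Between the lines TSPAN14 had folds of 1.1 (0.853 to 1.41) uninduced and 1.11 (0.864 to 1.44) induced.

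TSPAN3, which has been linked to self-renewal of myeloid leukaemia cells, and TSPAN31, a gene first found amplified in sarcomas beside CDK4, had intervals that held 1 in both inductions. TSPAN3 stood between 49.5 and 104.9 CPM over all libraries, with a fold of 1.06 (95% interval 0.694 to 1.62; edgeR adjusted p = 1) on WT and 0.91 (0.596 to 1.39) on S222A induction. Between the induced lines its fold was 0.737 (0.484 to 1.12). TSPAN31 stood between 1.55 and 5.48 CPM, with 4 to 36 counts a library. Its fold was 0.875 (0.397 to 1.93; edgeR adjusted p = 1) on WT and 1.16 (0.57 to 2.36) on S222A induction.

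Levels of different genes can be set side by side per length only, here as CPM per kilobase of exon in GENCODE 29, an annotation of GRCh38 that may differ from the one the authors used. In WT uninduced cells CD63 stood at 109 ± 31.3 (SD, n = 3) and CD81 at 81.4 ± 21.1 CPM per kilobase, with ranges that overlapped. CD53 followed at 36.3 ± 2.55 and TSPAN3 at 11.4 ± 2.99 CPM per kilobase, each apart from its neighbours. CD151, CD37, CD82, TSPAN14, CD9 and TSPAN31 were the lowest, at 5.78 to 0.806 CPM per kilobase, each overlapping the next. The exon length used for TSPAN14 was 16673 bases, against 1577 to 6605 for the other members. A shorter length would raise the place of TSPAN14 and could move that of CD82. CD82 was in place 7 of 10 in both WT groups, at 4.6 ± 0.404 and 6.18 ± 0.425 CPM per kilobase, and in place 4 in both S222A groups, at 20.3 ± 1.11 and 51.9 ± 2.52. In S222A induced cells the order was CD63 (260 ± 46.5), CD53 (98.6 ± 15.6), CD81 (65.9 ± 10.8) and CD82, with no overlap between neighbours.

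As a share of the counts of all 10 genes, CD82 made up 1.16 to 1.99% in WT uninduced, 1.55 to 2.6% in WT induced, 4.22 to 5.99% in S222A uninduced and 9.11 to 10.9% in S222A induced libraries. Over the same groups CD81 made up 24 to 27.7%, 20.5 to 25.2%, 17 to 19.6% and 10.8 to 12.7%. These shares are of counts not scaled to length, and each depends on the levels of the other members. In CPM the groups of CD81 overlapped, with a fold of 0.856 on S222A induction. CD63 made up 32.3 to 46.1% in WT and 49.1 to 53.8% in S222A libraries.

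Of the 23 other human tetraspanin genes, 6 passed the filter on low counts and 3 had no count in any library (TSPAN1, TSPAN6 and UPK1A). None of the 6 was called in any of the 5 comparisons with edgeR's quasi-likelihood test. TSPAN9 stood at 6.2 ± 0.345 CPM in S222A uninduced and 11.1 ± 0.744 CPM in S222A induced libraries (SD, n = 3; fold 1.82, edgeR adjusted p = 0.0624), and a term for the deepest libraries called it (adjusted p = 0.0174). On the same induction TSPAN33 had a fold of 1.57 (edgeR adjusted p = 0.513). TSPAN32 stood at 4.82 ± 1.44 CPM in WT induced and 10.9 ± 2.54 CPM in S222A induced libraries (fold 2.27, adjusted p = 0.129), and the same term called it (0.0259). TSPAN33 and TSPAN17, which like TSPAN14 bind ADAM10, had folds of 1.24 and 1.33 on WT induction (adjusted p = 1 for both). TSPAN13 had a fold of 0.504 and TSPAN17 of 1.55 between the uninduced lines (adjusted p = 0.751 for both).

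ADAM10, the protease that TSPAN14 and its relatives escort, rose on S222A induction from 140.7 ± 8.41 to 259.4 ± 38.1 CPM (SD, n = 3; fold 1.84, edgeR adjusted p = 0.00737). It was also higher in S222A induced than in WT induced libraries (fold 2.05, adjusted p = 0.00235). On WT induction its fold was 1.24 (adjusted p = 1). Its fold between the uninduced lines was 1.38 (adjusted p = 0.462).

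Among 26 genes for partners and regulators of tetraspanins at the membrane, 17 were tested, and on S222A induction 4 were higher and 0 lower, where 2.8% of all genes were higher and 1.66% lower. The lists of partners here, and of CD82 regulators and vesicle genes below, were chosen with earlier results of these data known. Their counts are descriptions only. MMP14, a membrane matrix metalloprotease, rose from 299.2 ± 63.4 to 771.8 ± 33.8 CPM (SD, n = 3; fold 2.59, edgeR adjusted p = 0.000511). ITGA6, the alpha subunit of laminin-binding integrins, rose from 3.21 ± 0.312 to 16 ± 0.912 CPM (fold 4.87, adjusted p = 0.000709). CD44, the hyaluronan receptor, rose from 266.9 ± 9.3 to 464.2 ± 12.7 CPM (fold 1.74, adjusted p = 0.00394), and the fourth was ADAM10. Without any 1 of the S222A libraries, 4 partners were still called. The median log2 fold change of the 17 was 0.52 on S222A induction, against 0.009 for all genes tested. On WT induction it was 0.18, against 0.006. None of the 17 was called there, and MMP14 had the smallest p (fold 1.41, adjusted p = 1).

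Between the uninduced lines MMP14 alone of the partners was called, at 2.19-fold (edgeR adjusted p = 0.00688), a call that was lost without WT uninduced replicate 3 (0.0567). Of all genes, 0.392% were called there. Between the induced lines 5 partners were higher and 1 lower, where 3.73% of all genes were higher and 2.61% lower. The lower one was ZDHHC2 (fold 0.663, edgeR adjusted p = 0.044). MMP14 (4.02-fold, adjusted p = 1.94e-05), ITGA6 (4.78-fold, 0.000488), ADAM10 and TIMP1 had the smallest p, and without any 1 library of these groups the count of partners called was 4 in place of 6. TIMP1, a secreted metalloprotease inhibitor that binds CD63, stood at 23.5 ± 2.43 in WT induced and 56.9 ± 5.58 CPM in S222A induced libraries (SD, n = 3; adjusted p = 0.00296). For the difference of induction effects no partner was called by edgeR, with ITGA6 at log2 2.1 ± 0.43 SE (adjusted p = 0.145) and CD44 at 0.74 ± 0.18 SE (0.321). A term for the deepest libraries called both ITGA6 (0.0359) and CD44 (0.0152), and DESeq2 called CD44 (0.00143).

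Of 14 genes reported to act on CD82 transcription, 13 were tested, and 1 was higher and 1 lower on S222A induction, where 2.8% of all genes were higher and 1.66% lower. BCL3, an IkB family protein that acts with NF-kB on chromatin, rose from 15.3 ± 8.72 to 50.3 ± 6.12 CPM (SD, n = 3; fold 3.74, edgeR adjusted p = 0.00793), a call lost without S222A uninduced replicate 2 (0.0532). Between the induced lines 1 regulator was also higher and 1 lower, where 3.73% of all genes were higher and 2.61% lower. BCL3 was 7.77-fold higher in the S222A than in the WT induced libraries (adjusted p = 0.000488). Between the uninduced lines BCL3 had a fold of 3.39 (adjusted p = 0.119), called without the deepest libraries (0.0223), with a term for them (0.0298), with no filter on low counts (0.00074) and with DESeq2 (0.0138). RUVBL1, the ATPase pontin, fell on S222A induction from 236.9 ± 38.7 to 145.4 ± 16 CPM (edgeR adjusted p = 0.041). This call was lost without S222A uninduced replicate 2 or 3 or any 1 induced replicate (up to 0.146) or with no filter on low counts (0.0784). Between the induced lines RUVBL1 was lower in S222A (fold 0.603, edgeR adjusted p = 0.0287). That call was lost without WT induced replicate 2 or 3 or any 1 S222A induced replicate (up to 0.103). On WT induction no regulator was called, and BCL3 had a fold of 1.63 and RUVBL1 of 0.834 (adjusted p = 1 for both). NFKB1 had a fold of 1.34 between the uninduced lines (adjusted p = 0.723).

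Of 15 genes of vesicle formation, in which CD63, CD81 and CD9 are sorted, 14 were tested and 1 was called on S222A induction, where 4.45% of all genes were called, so the count is close to the share over all genes. RAB27B, a GTPase of vesicle release, rose from 4.22 ± 1.09 to 12.4 ± 3.58 CPM (SD, n = 3; fold 3.16, edgeR adjusted p = 0.0152). Its call was lost without S222A uninduced replicate 1 (0.0912) or 2 (0.0746) or S222A induced replicate 2 (0.0835). RAB27B was also higher between the induced lines (fold 4.14, adjusted p = 0.00475). None of the 14 was called on WT induction, where RAB27B had a fold of 0.745 and VPS4B of 1.16 (adjusted p = 1 for both), nor between the uninduced lines, where RAB27A had the smallest p (fold 1.33, adjusted p = 0.41), followed by FLOT2 (1.21, 0.878). For the difference of induction effects RAB27B stood at log2 2.08 ± 0.51 SE (edgeR adjusted p = 0.321), called with a term for the deepest libraries (0.0387), and TSG101 at 0.49 ± 0.2 SE (0.695).

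The genes whose levels followed CD82 most closely over the 12 libraries, among 7220 compared, were CYP1B1 (Pearson r = 0.984), CYBB (0.972), TNFAIP3 (0.97), RNF24 (0.969) and PLEKHO1 (0.967). All points share the 4 groups and their libraries, so these are descriptions. CYP1B1, a cytochrome P450, had means of 23.6 and 31.8 CPM in uninduced and induced WT cells and of 59.9 and 155.1 CPM in uninduced and induced S222A cells, the order seen for CD82. In that order PLEKHO1 had 9.53, 12.6, 65.5 and 106.7 CPM, and CYBB, a subunit of the phagocyte NADPH oxidase, 112, 115.9, 226.9 and 281.7 CPM. Among the tetraspanins the r with CD82 was 0.83 for CD63 and 0.72 for CD53, and between -0.48 for TSPAN3 and 0.44 for TSPAN31 for the others.

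**Figure D4:**
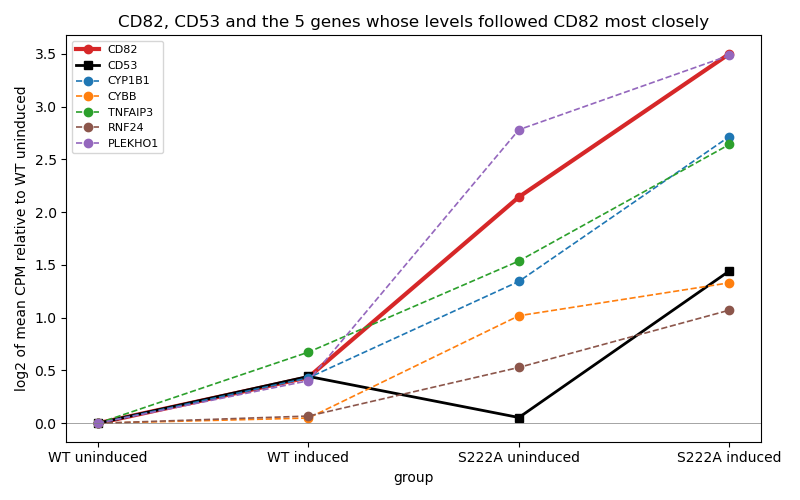
Mean CPM of each group as log2 relative to the WT uninduced mean (vertical axis) in the 4 groups (horizontal axis), for CD82, CD53 and the 5 genes with the highest Pearson r with CD82 over 12 libraries (0.967 to 0.984). CD82 and the 5 genes had higher means in S222A uninduced than in WT uninduced cells (CD82 46.4 against 10.5 CPM), whereas the CD53 means were 59.4 and 57.2 CPM.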

How the data were processed

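The deposited file is 1 table by gene symbol with 12 columns of raw, whole-number counts, which the authors left without normalization. Its header has a space in place of the last tab, so columns were matched by position and by name, and the names are the sample descriptions. The submitters' processing notes name hg19 as the build and list STAR 2.4, DESeq2 and HTSeq 0.6.1 without their roles. The annotation is not given in the sources used here, nor is the strand. In GENCODE 29, the spans of 9 of the 10 genes (all but CD53), introns included, overlap a gene on the other strand. TSPAN31 with CDK4, CD37 with TEAD2 and CD151 with POLR2L are among them. Whether reads of such pairs were kept apart is therefore not known.

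Genes were filtered with filterByExpr (minimum count 10), leaving 99.47% of counts, scaled with TMM factors and tested with edgeR 4.0.16 (R 4.3.3) by robust quasi-likelihood F tests in 1 model of 4 group means (8 residual degrees of freedom). Adjusted p-values are Benjamini-Hochberg values over the 11474 genes, with calls under 0.05. The SE is the size of the log2 fold change over the root of F, log2 CPM uses a prior count of 2, and library pairs within a group differed by more than sampling noise (chi-square per degree of freedom 2.64 to 35.22). On simulated data the script called 20% of 2-fold and 69% of 4-fold changes on WT induction. On S222A induction it called 32% and 82%. A gene that was not called may therefore still differ. Alternatives were DESeq2 1.42.0, RLE factors, no low-count filter, a replicate block, a term for or omission of the deepest libraries, and each library left out.

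The members and gene lists were chosen with earlier results of these data known. Genes named from other lists are up to 4 called with the smallest p per comparison or, with none called, up to 2. ZDHHC2 is named besides, as the only partner called lower. The 5 genes most like CD82 had to average 4 or more on the log2 CPM scale. The summed level of the B cell marker list is not reported here.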

Additional observations from a re-analysis of the deposited data

How the results depend on the processing

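The log2 fold change of CD82 on S222A induction was 1.32 to 1.42 over the alternatives, a description of the values that chose it. On WT induction no member was called in any alternative. Its uncalled values changed sign without the deepest libraries for CD63 (-0.15). They also did without WT uninduced replicate 1 for TSPAN31 (0.06), replicate 2 for CD81 (0.01) and replicate 3 for CD63 (-0.11) and TSPAN3 (-0.08). Without WT induced replicate 1 the values were -0.53 for CD9, -0.24 for CD37, -0.4 for CD63 and -0.2 for TSPAN3. Over single libraries left out, these values ranged from -0.53 to 2.03 for CD9, -0.24 to 0.7 for CD37, -0.48 to 0.01 for CD81, -0.2 to 0.33 for TSPAN3 and -0.61 to 0.06 for TSPAN31. TSPAN33 in the difference of induction effects ranged from -0.05, without WT induced replicate 3, to 0.63. With the term for the deepest libraries the members called became 4 on S222A induction (CD9 and TSPAN14 added), 2 between the uninduced lines (CD63 added) and 5 between the induced lines (CD9 and TSPAN3 added). The 2 between the uninduced lines also arose without the deepest libraries or the filter. The same term called 7 partners on S222A induction in place of 4.

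Counts over all genes moved more. Called on WT induction was 1 gene, against 2 with no filter, 2 with DESeq2, 6 with the term for the deepest libraries, 0 without these libraries and 0 without any 1 WT library. On S222A induction 511 genes became 2052 with that term and 187 to 329 without single libraries. Between the uninduced lines 45 became 91 with no filter, 218 with the term, 72 with DESeq2 and 17 to 30 without single libraries. Between the induced lines 727 became 2480 with the term and 249 to 582 without single libraries. The difference of induction effects had 9, against 22 with no filter, 147 with the term, 35 with DESeq2 and 0 to 4 without single libraries. The cause was not tested, beyond fewer samples where libraries were left out.

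Replicate numbers are shared by the groups, but same-numbered libraries did not deviate together (r from -0.53 to 0.32). The highest r of each comparison (0.61 to 0.76) was between the deepest libraries, which carry different numbers. The deepest libraries thus weigh on these values, so they cannot tell whether same-numbered libraries were paired. The part of depth itself was not tested. With a replicate block the genes called were 0 on WT induction, 235 on S222A induction, 22 between the uninduced lines, 350 between the induced lines and 0 for the difference of effects. CD63 lost its call between the induced lines with the block, as did RUVBL1 there (adjusted p = 0.0719) and on S222A induction (0.0999).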
